A study of Mus musculus with 30 samples.

Results

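The apolipoproteins described here are 10 genes, Apob, Apoa1, Apoa2, Apom, Apoa4, Apoc3, Apoc4, Apoe, Apof and Apoh, measured by 17 probe sets on a mouse expression array. They were taken by gene symbol: every probe set that the platform annotation gives to that symbol alone was used. Those 17 stand among 45037 probe sets, and the 10 genes among 18193 genes with a symbol. All 17 probe sets and all 10 genes passed the filter on low signal that left 22519 probe sets and 12159 genes for testing. Where a gene has several probe sets, the brightest on average stands for it and the others are given beside it.

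Liver, kidney and brain RNA came from 10 male mice of genotype Avy/a, taken at day 22, the time of weaning. Avy, or viable yellow, is an agouti allele that arose in the C3H/HeJ strain, and a is the nonagouti allele opposite it. All mice carried both alleles, so no mouse without Avy was included, and they came from a single colony kept by sibling mating. They fell into 5 coat classes of 2 mice each, ordered from yellow through slightly mottled, mottled and heavily mottled to pseudoagouti, and are numbered 1 and 2 within a class. Each tissue of each mouse was measured on 1 array, 30 in all, and a class with a number was read as naming 1 mouse across its 3 arrays. The series set out to find transcripts that vary between mice and are shared by tissues.

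Values are MAS5 signals, a linear brightness per probe set. Array medians were 105 to 145 for liver arrays, 114 to 153 for kidney arrays and 138 to 205 for brain arrays. The highest signal on any liver array was between 34084 and 50092, that of kidney arrays between 19007 and 45410, and that of brain arrays between 16761 and 37230. The tissue labels matched their markers: 17 of 17 measured liver markers, 10 of 11 kidney markers and 11 of 11 brain markers were highest in their own tissue. The mean log2 level of the 17 liver markers differed between kidney arrays, as given below, and 4 kidney arrays stood above 7, those of yellow 2, mottled 2, yellow 1 and slightly mottled 2. Kidney minus brain differences and kidney coat slopes of the probe sets that stand for the genes are given with and without those 4 mice. So are the main Apom results that turn on kidney, and the liver minus kidney differences of Apoa1, Apof and Apoc4. The number of arrays limits the precision of all values.

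Apolipoproteins are the protein part of lipoproteins, the particles that carry triglyceride and cholesterol in blood and in the fluid of the brain. Some build the particle, some switch lipases on or off, and some are bound by receptors that clear it. Hepatocytes and, for several of them, the small intestine secrete those of plasma, whereas Apoe is also made by astrocytes and macrophages.

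Several members lie beside each other on the chromosome. In RefSeq's annotation of GRCm38.p6, Apoa1, Apoc3 and Apoa4 follow each other on chromosome 9, with Apoa5 next to Apoa4. Apoc4 lies between Apoc2 and Apoc1 on chromosome 7, and Apoe lies on the other side of Apoc1. Apof lies next to Apon on chromosome 10. Promoter stretches were found in RefSeq's table for 8 of the 10 genes and not for Apoc3 and Apof. The 4 below are shown because their genes span the patterns that follow. Apob and Apoc4 were high in liver and low elsewhere, Apom was shared by liver and kidney, and Apoe was high in all 3 tissues. Each is 300 bases, 5′ to 3′ on the gene's strand, ending shortly after the annotated start, and the Apoe stretch is for the most upstream of its 3 starts. Capitals mark a match to TATAAA (the TATA box, in Apob) or to AGGTCA (a nuclear receptor half-site, in Apoc4), each searched on both strands.
Apob chr12:7977427-7977726 (+ strand): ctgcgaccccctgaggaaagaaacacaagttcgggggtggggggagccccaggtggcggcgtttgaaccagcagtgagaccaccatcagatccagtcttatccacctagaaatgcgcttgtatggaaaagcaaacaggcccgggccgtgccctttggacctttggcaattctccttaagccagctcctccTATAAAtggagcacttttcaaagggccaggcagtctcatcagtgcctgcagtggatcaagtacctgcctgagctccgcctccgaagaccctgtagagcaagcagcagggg
Apoc4 chr7:19681411-19681710 (- strand): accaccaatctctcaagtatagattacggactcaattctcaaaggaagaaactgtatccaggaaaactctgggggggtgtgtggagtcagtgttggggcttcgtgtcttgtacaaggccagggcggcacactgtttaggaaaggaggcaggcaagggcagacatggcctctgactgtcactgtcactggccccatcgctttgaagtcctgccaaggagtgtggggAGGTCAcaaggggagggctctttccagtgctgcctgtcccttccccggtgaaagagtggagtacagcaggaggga
Apom chr17:35131752-35132051 (- strand): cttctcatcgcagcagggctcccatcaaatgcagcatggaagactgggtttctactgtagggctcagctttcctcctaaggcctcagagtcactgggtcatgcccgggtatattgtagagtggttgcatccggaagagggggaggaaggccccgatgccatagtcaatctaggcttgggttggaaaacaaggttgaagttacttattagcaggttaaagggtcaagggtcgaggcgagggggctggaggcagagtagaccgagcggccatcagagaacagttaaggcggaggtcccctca
Apoe chr7:19699139-19699438 (- strand): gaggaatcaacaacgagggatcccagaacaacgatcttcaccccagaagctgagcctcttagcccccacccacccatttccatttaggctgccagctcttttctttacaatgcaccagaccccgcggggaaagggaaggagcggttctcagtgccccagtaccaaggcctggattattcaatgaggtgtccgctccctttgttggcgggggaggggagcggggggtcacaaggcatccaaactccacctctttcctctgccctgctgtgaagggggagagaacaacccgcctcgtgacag
The first base of the TATAAA match in Apob was 60 bases before the annotated start, and that of the AGGTCA match in Apoc4 was 25 bases before it. AGGTCA was found in 3 of the 11 promoters listed for the 8 genes (Apoa2, Apoc4 and Apoh) and in 16.3% of all 32851 promoters of that length. TATAAA was found in 3 of the 11 (Apoa2, Apob and another start of Apoe, where matches on both strands overlap) and in 13.6% of all promoters. The HNF1 motif was found in none of the 11 and in 0.00913% of all. These matches describe letters, not binding.

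The first comparison asked where the genes are expressed. All 10 genes were higher in liver than in kidney, and all 10 were higher in liver than in brain. Between kidney and brain, 6 genes were higher in kidney, 1 was lower in kidney (Apoe), and Apoc4, Apof and Apoh were not called. Calls are from limma on log2(signal + 16) with mouse as a block, at an adjusted p under 0.05 and a log2 difference of at least 1. Over all probe sets, 9.85% were called higher in liver than in kidney, 20.4% higher in liver than in brain, 20.7% higher in kidney than in brain and 21.9% lower. The median log2 difference of the 10 genes was 6.61 for liver minus kidney, 8.05 for liver minus brain and 1.30 for kidney minus brain. Over all tested probe sets those medians were -0.13, -0.15 and 0.03. A fold below is a ratio of signal + 16, which understates the change of genes at low signal. In whole tissue, fewer cells of a type and less RNA per cell cannot be told apart.

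All 10 liver arrays lay above all 10 kidney arrays for 10 genes and 16 of 17 probe sets, against 10.1% of all probe sets, the exception being Apom 1419095_a_at. All 10 liver arrays lay above all 10 brain arrays for 10 genes and 17 of 17 probe sets, against 21.5% of all probe sets. All 10 kidney arrays lay above all 10 brain arrays for 3 genes (Apoa2, Apob and Apom) and 4 probe sets, against 22.1% of all. The reverse, all 10 brain arrays above all 10 kidney arrays, held for Apoe and for 23.7% of all probe sets.

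**Figure D1:**
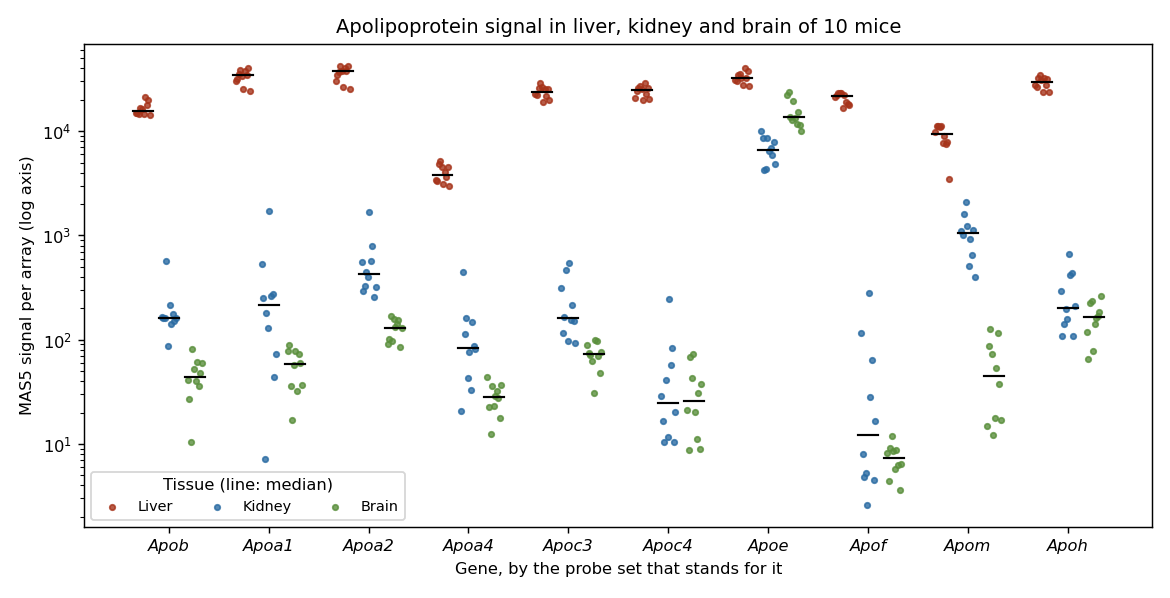
MAS5 signal of each apolipoprotein gene (log axis) on the 10 liver, 10 kidney and 10 brain arrays, each point an array and each line a median. Liver medians run from 3836 (Apoa4) to 37438 (Apoa2), and Apoe has the highest kidney and brain medians of the 10, at 6661 and 13601.

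Apob encodes apolipoprotein B, the non-exchangeable structural protein of chylomicrons, VLDL and LDL. Its liver signal ran from 14420 to 21425 with a median of 15728, against 86.3 to 573.8 with a median of 162 in kidney and 10.5 to 81.6 with a median of 44.3 in brain. The groups did not overlap in any pair of tissues. Liver exceeded kidney by 6.42 ± 0.18 on the log2 scale (SE, 85.6-fold, adjusted p = 2.2e-20, higher in 10 of 10 mice) and brain by 8.14 ± 0.18 (281-fold, adjusted p = 5.7e-23). Kidney exceeded brain by 1.72 ± 0.18 (adjusted p = 3.3e-09). The heavily mottled 1 kidney stood apart at 573.8, where the other 9 kidneys had 86.3 to 213. The second Apob probe set, 1457554_at, was more variable in liver, as given below, and its kidney minus brain difference of 0.95 ± 0.34 fell short of the log2 difference of 1.

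Apoa1 and Apoa2 encode the main proteins of HDL, and Apoa1 also activates the cholesterol-esterifying enzyme Lcat. The representative Apoa1 probe set, 1438840_x_at, ran from 24202 to 40211 with a median of 34419 in liver, from 7.2 to 1697.5 with a median of 216 in kidney, and from 16.8 to 88.9 with a median of 58.3 in brain. Kidney thus spanned more than brain, and the 2 groups overlapped. Liver exceeded kidney by 7.41 ± 0.40 on the log2 scale (170-fold, adjusted p = 8.9e-15) and brain by 8.92 ± 0.40 (486-fold, adjusted p = 5.9e-17). Kidney exceeded brain by 1.52 ± 0.40 (adjusted p = 0.0012, higher in 8 of 10 mice), a call that was not kept without the 4 mice with liver markers in kidney (0.70, adjusted p = 0.11). Across mice the SD of this probe set was 1.72 in kidney, 0.24 in liver and 0.54 in brain on the log2 scale. The shared SE thus understates the spread of the kidney contrasts and overstates that of liver minus brain. Across the 4 Apoa1 probe sets, liver minus kidney ran from 7.41 to 8.37 and liver minus brain from 8.92 to 10.46. Between any pair of these probe sets the correlation over 10 mice was 0.943 to 0.995 in liver and 0.938 to 0.975 in kidney.

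Apoa2 had 25281 to 42316 in liver (median 37438), 259 to 1683 in kidney (median 425) and 85.4 to 167.1 in brain (median 131). No 2 tissues overlapped. Liver minus kidney was 6.15 ± 0.21 (70.8-fold, adjusted p = 6.4e-19) and liver minus brain 7.98 ± 0.21 (252-fold, adjusted p = 9.5e-22). Kidney minus brain was 1.83 ± 0.21 (adjusted p = 1.1e-08).

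Apom encodes apolipoprotein M, an HDL protein that carries sphingosine-1-phosphate and is made in hepatocytes and in the kidney tubule. Its representative probe set, 1419096_at, had 3456 to 11192 in liver (median 9370), 396 to 2090 in kidney (median 1058) and 12.2 to 125.3 in brain (median 45.3). Of the 10 genes it had the largest kidney minus brain difference, 4.02 ± 0.22 on the log2 scale (16.2-fold, adjusted p = 5.5e-15), and no kidney overlapped any brain. Liver exceeded kidney by 3.14 ± 0.22 (8.81-fold, adjusted p = 1.75e-12). The second probe set, 1419095_a_at, gave 3.27 ± 0.31 for liver minus kidney and 5.45 ± 0.31 for kidney minus brain.

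Apoa4, Apoc3 and Apoc4 encode exchangeable apolipoproteins. Apoa4 is made largely by the intestine, and Apoc3 inhibits lipoprotein lipase and the uptake of remnants. Apoa4 was the lowest of the 10 in liver on these probe sets, at 2951 to 5161 (median 3836), with 20.5 to 444.9 in kidney (median 84.1) and 12.4 to 44.2 in brain (median 28.1). Signals of different probe sets do not rank transcripts, since probes differ in brightness. Liver minus kidney was 5.21 ± 0.28 (37.1-fold, adjusted p = 9.5e-15) and kidney minus brain 1.29 ± 0.28 (adjusted p = 1.8e-04, higher in 9 of 10 mice). On the second Apoa4 probe set, 1417761_at, kidney minus brain was 0.26 ± 0.26 (adjusted p = 0.35). On both Apoa4 probe sets slightly mottled 1 had the highest kidney, at 444.9 against 20.5 to 162.6 in the other 9, and at 136.4 against 3.6 to 14.7.

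Apoc3 had 19191 to 28984 in liver (median 23982), 92.0 to 542.3 in kidney (median 160) and 31.0 to 100.3 in brain (median 72.6). Liver minus kidney was 6.81 ± 0.21 (112-fold, adjusted p = 8.2e-20), and kidney minus brain was 1.31 ± 0.21 (adjusted p = 2.6e-06, higher in 10 of 10 mice). Apoc4 had 19827 to 28909 in liver (median 24912), 10.4 to 247.3 in kidney (median 24.7) and 8.7 to 72.9 in brain (median 25.8). The kidney and brain values of Apoc4 overlapped along most of their range, and kidney minus brain was 0.22 ± 0.31 (adjusted p = 0.53). Liver minus kidney was 8.89 ± 0.31 (473-fold, adjusted p = 1.4e-18). Without the 4 mice with liver markers in kidney, the Apoc4 kidney minus brain difference turned to -0.58, with an adjusted p of 0.061.

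Apoe encodes the ligand through which the LDL receptor family takes up remnant particles. Its liver signal was 26935 to 39984 (median 32256), its kidney signal 4267 to 10022 (median 6661) and its brain signal 10078 to 23677 (median 13601). The 3 tissues did not overlap, in the order liver, brain, kidney, and it was the only one of the 10 genes called lower in kidney than in brain. Liver minus kidney was 2.32 ± 0.13 (4.99-fold, adjusted p = 3.4e-14), liver minus brain 1.13 ± 0.13 (2.19-fold, adjusted p = 1.6e-08) and kidney minus brain -1.19 ± 0.13 (adjusted p = 8.75e-09, lower in 10 of 10 mice). Under quantile normalisation over all arrays the liver minus brain difference was 0.42, under the log2 difference of 1, with an adjusted p of 5.7e-04. Kidney signal as a share of the liver signal of the same mouse was 12.2% to 32.5% for Apoe, with a median of 19.4%. That of Apom had a median of 11.2%, and the other 8 genes had medians of 0.0639% (Apof) to 2.37% (Apoa4).

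Apof encodes an inhibitor of cholesteryl ester transfer in human plasma. It had 16606 to 23520 in liver (median 21758), 2.6 to 277.9 in kidney (median 12.3) and 3.6 to 11.9 in brain (median 7.3). Its liver minus kidney difference of 8.93 ± 0.33 (488-fold, adjusted p = 4.3e-18) and its liver minus brain difference of 9.80 ± 0.33 (890-fold, adjusted p = 1.8e-19) rest on kidney and brain signals mostly under 20, where the offset sets their size. With an offset of 1 they were 10.06 and 11.34. Kidney minus brain was 0.87 ± 0.33 (adjusted p = 0.019), under the log2 difference of 1, and was -0.037 without the 4 mice with liver markers in kidney. Apoh encodes beta-2-glycoprotein I, a phospholipid-binding plasma protein. It had 23595 to 34833 in liver (median 29454), 107 to 668 in kidney (median 202) and 65.7 to 262.9 in brain (median 165). Liver minus kidney was 6.87 ± 0.24 (117-fold, adjusted p = 9.8e-19), and kidney minus brain was 0.56 ± 0.24 (adjusted p = 0.034), or -0.052 without those 4 mice.

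The kidney values of these genes were then set beside liver markers in the same arrays. The mean log2 level of the 17 liver markers in kidney was 9.21 in yellow 2, 7.65 in mottled 2, 7.57 in yellow 1 and 7.35 in slightly mottled 2, and 5.85 to 6.69 in the other 6 mice. In liver arrays it was 14.26 to 14.80, and in brain arrays 5.75 to 6.74. The mean of 11 kidney markers in the kidney arrays was 12.33 to 12.97. Thus 4 kidney arrays lay above every brain array in liver markers, and 2 of the 4 were of the yellow class.

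Kidney signals of 6 of the 10 genes followed that mean, with Pearson r over 10 mice of 0.978 for Apoa2, 0.951 for Apoc4, 0.947 for Apof, 0.940 for Apoh, 0.856 for Apoa1 and 0.719 for Apoc3. Apart from that of Apoc3, which was 0.512, these r stayed at 0.738 or above without the 2 mice farthest from the median of the marker mean. The other 4 genes had r of 0.197 (Apob), 0.077 (Apoe), -0.286 (Apoa4) and -0.450 (Apom). An r above 0.7 was seen for 13 of 17 liver markers, each set against the mean of the other markers, and for 1.09% of all tested probe sets. Apoa2 had the highest r of all 22519. These correlations describe 10 arrays that share a hybridisation and a scaling with the markers. Liver RNA in the kidney samples, or expression of these genes by kidney cells, as a source of the shared values was not tested.

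**Figure D2:**
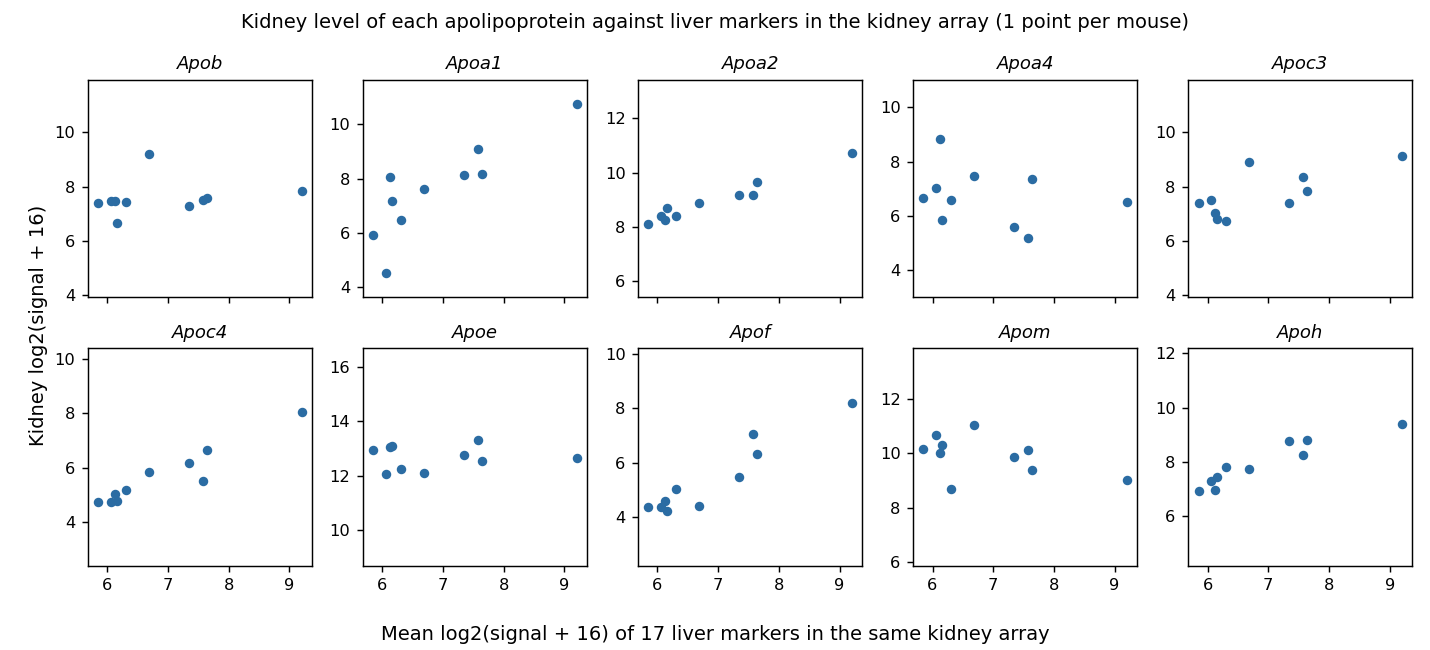
Kidney log2(signal + 16) of each apolipoprotein against the mean log2 level of 17 liver markers in the same kidney array, 1 point per mouse, with every panel spanning 8 log2 units. Apoa1, Apoa2, Apoc4, Apof and Apoh climb with the markers to yellow 2 at 9.21, whereas Apoe and Apom do not.

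Yellow 2 had the highest kidney signal for 6 of the 10 genes and for 16 of the 17 liver markers. Its kidney signal was 1697.5 for Apoa1, against 7.2 to 532.6 in the other 9 kidneys. For Apof it was 277.9, against 2.6 to 116.6, and for Apoc4 it was 247.3, against 10.4 to 83.6. As a share of the same mouse's liver signal these were 6.62% for Apoa1, 1.67% for Apof and 1.25% for Apoc4, with 6.28% for Apoa2, 2.83% for Apoc3 and 2.83% for Apoh. The liver markers of yellow 2 spanned 0.308% to 46.8% with a median of 2.67%, and the highest was that of Alb, serum albumin. Over all mice the median share was 0.0135% to 3.33% across liver markers.

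**Figure D3:**
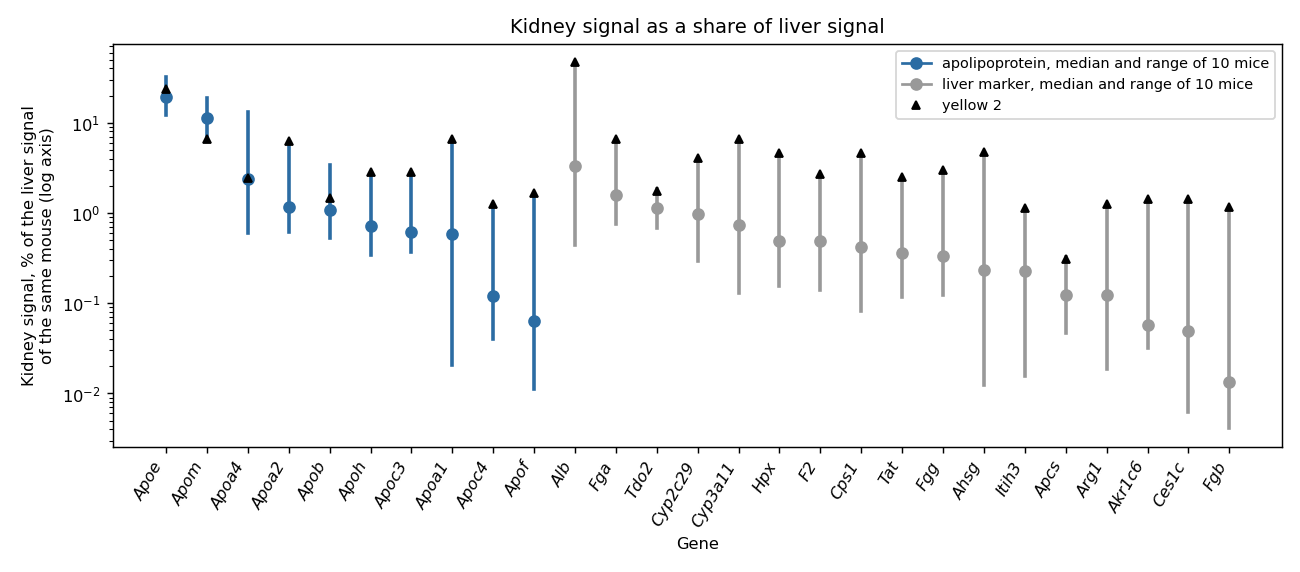
Kidney signal as a percent of the liver signal of the same mouse (log axis) for the 10 apolipoproteins and 17 liver markers, with the median (point) and range (line) of 10 mice and yellow 2 as a triangle. Apoe and Apom lie above all liver markers in median, at 19.4% and 11.2%, and yellow 2 tops the range of 6 apolipoproteins.

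Without the 4 mice, the liver minus kidney difference stayed called for 10 of 10 genes and was 8.40 for Apoa1, 9.88 for Apof and 9.55 for Apoc4. Kidney minus brain was then called for 6 genes. Apoa2, Apoa4, Apob, Apoc3 and Apom were higher in kidney, at 1.37, 1.77, 1.76, 1.19 and 4.16, and Apoe was lower, at -1.25.

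The next comparison asked whether these genes follow the coat classes, scored from 0 for yellow to 4 for pseudoagouti. No gene passed an adjusted p of 0.05 in liver, kidney, brain or the mean of the 3 tissues in limma. Over all tested, 0% were called for liver, 0.00444% for kidney (1 probe set), 0% for brain and 0.00444% for the mean. At an unadjusted p under 0.05, 0 of the 10 genes stood out in liver, 4 in kidney, 1 in brain and 3 in the mean, and over all 22519 probe sets 536, 465, 326 and 428 did so. In kidney 8 of the 10 slopes were below 0, against 54.1% of all probe sets, and their median was -0.30 log2 per step.

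Apoa1 was measured by 4 probe sets, and their kidney slopes are described first. On its representative probe set the kidney signal, in the order of number 2 then number 1, was 1697.5 and 532.6 in yellow, 262.3 and 252.7 in slightly mottled, 274.9 and 7.2 in mottled, 44.0 and 178.4 in heavily mottled, and 73.4 and 128.5 in pseudoagouti mice. Both yellow kidneys exceeded all 8 others, and the lowest value was that of mottled 1. Per coat step the slope was -0.75 ± 0.25 for 1438840_x_at, -0.94 ± 0.25 for 1419232_a_at, -1.01 ± 0.20 for 1419233_x_at and -0.96 ± 0.27 for 1455201_x_at, all with an adjusted p of 1.0 in limma. Two-sided exact permutation tests over the 113400 assignments of mice to classes gave unadjusted p of 0.039, 0.020, 0.0041 and 0.023 in the same order. The 4 probe sets share a transcript and are not independent. The exact tests, here and for the other tissues and the mouse mean below, were run for Apoa1 alone. Apoa1 was chosen with earlier results of these data known. The exact p-values thus describe the slopes that were picked and cannot decide whether Apoa1 follows coat class.

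In liver the Apoa1 slopes were 0.02 to 0.04, with exact p of 0.49 to 0.73, and in brain they were -0.17 to 0.01, with exact p of 0.17 to 0.94. Liver Apoa1 lay near the highest signal of its array. On 1419232_a_at it was 48515 in heavily mottled 2 and 31452 in pseudoagouti 2, and the highest signals of those liver arrays were 50092 and 34084. The part of the array's highest signal in the liver slopes was not tested. The slope of the mouse mean was -0.30 to -0.33, with exact p of 0.0030 to 0.027. A difference of the Apoa1 slopes between tissues was not called by limma's moderated F-test, where the lowest adjusted p was 0.15 for 1419233_x_at and 0% of all probe sets were called. The other 9 genes were not called either. Within mice numbered 2 the kidney slopes were -1.07 to -1.44, and within those numbered 1 they were -0.43 to -0.70.

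**Figure D4:**
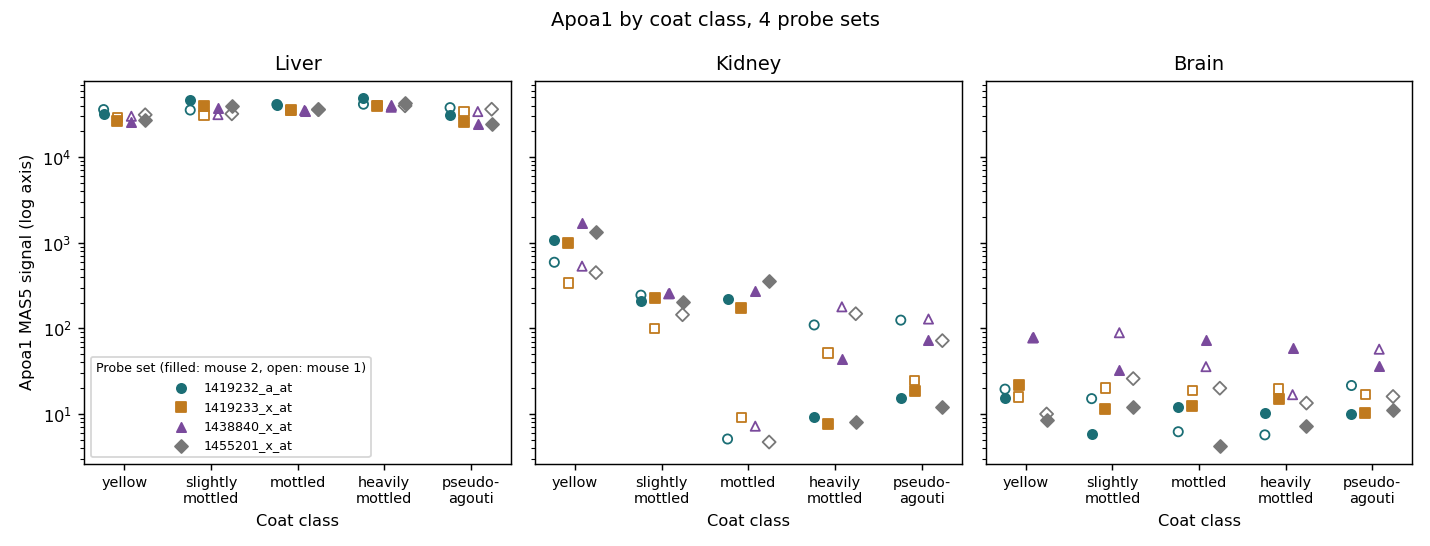
Apoa1 MAS5 signal (log axis) by coat class in liver, kidney and brain for its 4 probe sets, with mouse 2 filled and mouse 1 open. Liver values stay between 24196 and 48515, and the yellow kidneys, at 339 to 1698, lie above nearly all other kidneys.

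In the same kidney arrays 17 of 17 liver markers had coat slopes below 0, from -0.85 to -0.01 with a median of -0.46. Of these, 12 had an unadjusted p under 0.05 in limma and 0 were called. The 17 markers share these arrays and mostly rose together, so they are not independent. With the marker mean as a covariate the Apoa1 kidney slopes were -0.15, -0.42, -0.45 and -0.27 for the 4 probe sets in the order above, with unadjusted p of 0.54, 0.16, 0.011 and 0.28. Without the 4 mice that had liver markers in kidney they were -0.06, -0.34, -0.36 and -0.28. Those 4 include both yellow mice, so every slope without them lacks the yellow class. The loss of that class and the loss of the kidneys rich in liver markers cannot be told apart. Apof had a kidney slope of -0.66 ± 0.19 (unadjusted p = 0.0035, adjusted p = 1.0), of -0.14 with the covariate and of 0.03 without the 4 mice. Apoa2 and Apoc4 had kidney slopes of -0.30 ± 0.13 and -0.39 ± 0.18, and of 0.091 and 0.035 without the 4 mice. Apoh, Apoc3 and Apob had kidney slopes of -0.30 ± 0.14, -0.30 ± 0.14 and -0.03 ± 0.13, and of 0.20, -0.091 and -0.098 without the 4 mice. Those of Apoe and Apom were -0.10 ± 0.08 and 0.05 ± 0.14, and -0.041 and -0.23 without the 4 mice. Apoa4 had 0.06 ± 0.20, and -0.75 ± 0.18 without them (adjusted p = 0.62 in limma).

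The series looked for transcripts that vary between mice and are shared by tissues. A mouse effect over the 3 tissues was called for 1 of the 10 genes, Apom, against 6.8% of all probe sets. That count is near the background, so it does not set these genes apart, and the Apom values below describe a single gene. On 1419096_at the mouse means spanned 1.92 on the log2 scale (3.79-fold, adjusted p = 0.039 by the moderated F-test), with mottled 1 highest and pseudoagouti 2 lowest. The signal of pseudoagouti 2 was 3456 in liver and 396 in kidney, the lowest of the 10 mice in both. The other 9 livers had 7599 to 11192, and the other 9 kidneys 510 to 2090. On the second probe set, 1419095_a_at, pseudoagouti 2 was also lowest, at 2593 in liver and 215 in kidney, and the adjusted p was 0.21 over 3 tissues and 0.030 over liver and kidney alone. Without pseudoagouti 2 the adjusted p of 1419096_at was 0.23, and without the 4 mice with liver markers in kidney it was 0.099, so that the call was not kept in either. By the same F-test the unadjusted p of 1419096_at was 4.0e-04 without those 4 mice, against 0.0020 in all 10. That of 1419095_a_at was 0.0088 without them, against 0.057. Without the 4 mice the call was thus lost through the adjustment over all probe sets, while the unadjusted p fell.

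**Figure D5:**
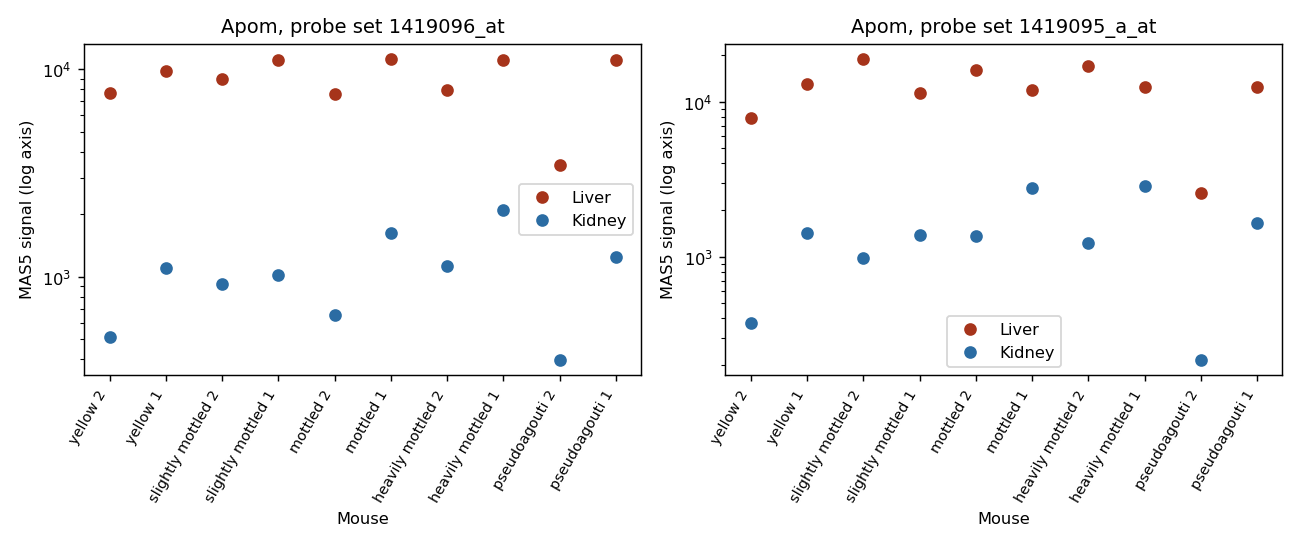
Apom MAS5 signal (log axis) in liver and kidney of each of the 10 mice, ordered by coat class with mouse 2 before mouse 1, for its 2 probe sets. Pseudoagouti 2 is the lowest point in both tissues and on both probe sets, at 3456 and 396 on 1419096_at.

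The label number was also set against Apom. On 1419096_at, mice numbered 2 had 3456 to 8948 in liver, and those numbered 1 had 9793 to 11192. In kidney, mice numbered 2 had 396 to 1124 and those numbered 1 had 1015 to 2090. On 1419095_a_at the number 1 livers, at 11364 to 13033, lay within the number 2 range of 2593 to 18809. The share of all probe sets whose number groups do not overlap was not counted. Number 2 minus number 1, with coat step as a covariate, was -0.68 ± 0.20 in liver (adjusted p = 0.058) and -1.0 ± 0.28 in kidney (adjusted p = 0.059). On 1419095_a_at it was -0.28 ± 0.43 in liver (adjusted p = 0.74) and -1.48 ± 0.46 in kidney (adjusted p = 0.071). Without the 4 mice with liver markers in kidney, the kidney differences were -1.06 and -1.80 (adjusted p = 0.54 for both). None of the 10 genes was called for the number in limma, against 8.93% of all tested for liver, 1.93% for kidney and 0.915% for brain. At an unadjusted p under 0.05 there were 2 of the 10 genes in liver, 3 in kidney and 1 in brain, against 25.3%, 27.8% and 21.1% of all probe sets, so these counts are near or under that background. With the number removed within each tissue, the Apom mouse effect had an adjusted p of 0.20.

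An unadjusted p under 0.05 for the mouse effect was found for 2 of the 10 genes, Apom and Apoe (0.048, adjusted p = 0.19), against 25.3% of all probe sets, and so no more often than over all. In brain its signal in mice numbered 2 was 10078 to 15238 with a median of 11820, and in those numbered 1 it was 12951 to 23677 with a median of 19471. The difference was -0.54 ± 0.18 on the log2 scale (adjusted p = 0.12). Brain Apoe followed the mean of 6 astrocyte markers, with r = 0.824 over 10 mice and 0.913 without the 2 mice farthest from the median. Its r was 0.825 with the mean of 11 brain markers, 0.967 with the highest signal of the same array and -0.599 with 7 microglia markers. Without the 2 mice farthest from each median these were 0.598, 0.933 and -0.058, so the r with microglia markers rests on 2 mice. Of all probe sets, 2.46% had an r above 0.8 with the astrocyte mean. The highest signal of a brain array was 16761 to 24161 for number 2 and 20060 to 37230 for number 1, and its part in the Apoe difference was not tested.

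The second Apob probe set, 1457554_at, had the widest liver spread of the 17 probe sets. Its liver signal, number 2 then number 1, was 4103 and 4846 in yellow, 12357 and 2430 in slightly mottled, 9056 and 2864 in mottled, 14300 and 3263 in heavily mottled, and 1553 and 2735 in pseudoagouti mice. Slightly mottled 2, mottled 2 and heavily mottled 2 stood above the other 7, which had at most 4846. Number 2 minus number 1 was 1.01 ± 0.49 (adjusted p = 0.22). The representative Apob probe set moved with it (r = 0.854) over a narrower range, and the same 3 livers were its highest, at 21425, 17789 and 19897, against 14420 to 16701 in the other 7. The highest signals of those 3 liver arrays were 48818, 45250 and 50092, against 34084 to 47341 in the other 7. Their part in the Apob values was not tested. The variation ratio R, the spread between mice over the spread between tissues, was 0.10 to 0.29 for the 17 probe sets, and 0 exceeded 1.5, against 0.662% of all probe sets. Most of these genes differ by several log2 units between tissues, which alone keeps R low. The count thus cannot decide whether they vary between mice.

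After tissue means were removed, the non-member genes most like Apoa1 over the 30 arrays were Vtn (vitronectin, r = 0.827), Itih4 (an inter-alpha-trypsin inhibitor chain, r = 0.810) and Uox (urate oxidase, r = 0.794). Those most like Apoe were Ttc3 (0.760), Gsta4 (a glutathione transferase, 0.748) and Ints8 (0.747). Those most like Apob were Cyp2d9 (a cytochrome P450, 0.741), Macrod1 (0.724) and Syndig1l (0.669). The SD of Apoa1 across mice was 1.72 in kidney, 0.24 in liver and 0.54 in brain on the log2 scale. Its r values thus rest mostly on the kidney arrays.

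Other genes of lipoprotein metabolism were counted from a list of 63, of which 51 were measured. Of the 51, 28 were higher in liver than in kidney, 7 were lower and 16 were not called, beside 9.85% higher and 18.6% lower over all probe sets. Against brain, 36 were higher in liver, 5 lower and 10 not called, beside 20.4% and 30.2% over all. For kidney minus brain, 20 were higher, 7 lower and 24 not called, beside 20.7% and 21.9% over all. No gene of the 51 was called for a coat slope in any tissue.

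Among 11 other genes listed with the apolipoproteins, 8 were higher in liver than in kidney and 0 lower. The 11 include Apobec1, called at 1.51, and Apoo, Apool and Apold1, which were not called. The count is thus not one of lipoprotein proteins alone. The largest differences were 7.65 for Apoa5, an activator of triglyceride clearance, 6.98 for Apoc2, the cofactor of lipoprotein lipase, 6.92 for Apon, 6.56 for Apol7a and 6.33 for Apoc1. The next was Clu, or clusterin, at 1.54. Against brain, 7 of the 11 were higher in liver, Apobec1 and Apool among them, and 1, Apod, was lower, with a log2 difference of -4.01. Apod and Clu were also lower in kidney than in brain, with differences of -5.36 and -1.03. The chromosome 9 and chromosome 7 neighbours of the members, Apoa5, Apoc1 and Apoc2, were thus also higher in liver than in kidney.

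The 11 receptors and their partners were split: 2 were higher in liver than in kidney and 6 lower. Scarb1, the HDL receptor, was higher by 2.29. The endocytic receptors of the proximal tubule, Cubn (cubilin) and Lrp2 (megalin), which take up filtered apolipoproteins, were lower in liver, with differences of -7.07 and -6.64. Those of Sorl1 and Vldlr were -4.28 and -3.74, and that of Lrpap1, a chaperone of these receptors, was -2.46.

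Of 11 genes of assembly, lipid transfer and efflux, 7 were higher in liver than in kidney and 1 lower. Pon1, an HDL-bound esterase, differed by 8.31, Lcat by 6.51 and Mttp, which loads lipid onto apolipoprotein B, by 4.69. Tm6sf2 followed at 3.26, Npc1, which moves cholesterol out of lysosomes, at 2.47 and the cholesterol exporter Abca1 at 1.83. Of 8 lipases and their controls, 2 were higher (Angptl8 by 3.77 and the lipid droplet protein Plin2 by 2.18) and 6 were not called, Lpl among them. The mean log2 level of 3 fat markers ran from 7.46 to 12.61 over the kidney arrays, and the part of fat in the kidney Lpl signal was not tested. Of 10 transcriptional controls, 9 were higher in liver than in kidney, led by Creb3l3 (5.77), Foxa2 (4.21), Nr5a2 (4.07), Cebpa (3.46), Nr0b2 (2.83) and Nr1h3 (1.70). The exception was Hnf4a, a nuclear receptor of hepatocytes and of the kidney tubule, which was not called between liver and kidney. Hnf4a was higher than in brain by 6.24 in liver and by 6.18 in kidney.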

How the data were processed

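The authors deposited linear intensity values, 1 per probe set and array, made with MAS5 per the submitters' processing notes, which give no version. The deposited intensity table holds no detection calls, and its trimmed mean over probe sets was 497.4 to 498.8 on every array with 2% trimmed at each end. Of the probe sets other than 64 controls, 34945 have 1 symbol, 932 several and 9160 none.

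Signals were used as deposited, as log2(signal + 16). A probe set was tested if its highest tissue mean reached the median of that quantity, a signal of 242. Fits used limma 3.58.1 (R 4.3.3), its eBayes step with a trend on mean level, and p-values adjusted by Benjamini-Hochberg over all 22519 probe sets. The tissue contrasts had mouse as a fixed block and a residual spread per probe set that was pooled over the tissues. The mouse effect was a moderated F-test with tissue as a covariate, and coat slopes were fitted per tissue and on mouse means. The fits were tested on simulated data.

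The series describes 10 mice with 3 tissues each. Deviations from tissue means of arrays with the same class and number correlated at a median of 0.158 (30 pairs), against -0.0294 for arrays of other mice.

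The 10 genes, the lists and the tests were chosen with earlier results of these data known. Named genes were all 10 members with all their probe sets, for each pathway group up to 6 called genes with the largest absolute liver minus kidney difference, and for Apoa1, Apoe and Apob the 3 most alike genes. Hnf4a, Lpl and Apod, the kidney minus brain value of Clu, and single mice, were singled out after their values were seen. Alternatives were offsets of 1 and 64, no filter, quantile normalisation, other blocks, pairs of tissues, the liver marker mean as a covariate and each mouse left out. The omission of the 4 mice with liver markers in kidney, and of pseudoagouti 2 with yellow 2, was added after the data were seen.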

Additional observations from a re-analysis of the deposited data

Results flagged for a closer look

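In 2 groups a value stood apart from those of the other 9 mice by Dixon's criterion, which compares the gap to the nearest value with the whole range and has a critical value of 0.466 for 10 samples. Of 30 groups of 10 arrays tested on the log2 scale, 2 passed, and chance gives about 1 in 20. The Apob kidney of heavily mottled 1, at 573.8 against 86.3 to 213 in the other 9, had a gap of 0.54 of the range. The Apom liver of pseudoagouti 2, at 3456 against 7599 to 11192, had a gap of 0.67 of the range.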

How the results depend on the processing

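The counts of genes called between tissues stayed within 1.5 times of 10, 10 and 7 under every alternative run for them, and no alternative called a coat slope or a slope difference between tissues. With no replicate block and with a random mouse block the tissue counts were again 10, 10 and 7. The replicate block by label number called 0 coat slopes in each tissue and in the mean, and the block by number and tissue called 0 slope differences. The differences between numbers correlated across classes at 0.129 to 0.391 for liver, at 0.0101 to 0.533 for kidney and at -0.00918 to 0.508 for brain. The medians were 0.234, 0.3 and 0.184, and 10, 9 and 6 of the 10 pairs of classes exceeded 0.1. The Apoa1 slope of 1419233_x_at had an adjusted p of 0.55 in limma with the block by label number.

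The Apom mouse effect was the least stable result. The count of genes called fell to 0, against 1, with an offset of 1, with no filter, under both quantile normalisations, with the replicate block by number within each tissue, with liver and brain alone, with kidney and brain alone, without pseudoagouti 2 and yellow 2 together, and without the 4 mice with liver markers in kidney. With each mouse left out it was 0 to 1, and it was 0 without slightly mottled 1, mottled 1, heavily mottled 1, yellow 2 or pseudoagouti 2. The adjusted p of 1419096_at ran from 0.052 to 0.51 in these settings. The cause was not tested. Without the 4 mice with liver markers in kidney the unadjusted p of 1419096_at was lower than with all mice, as given above.

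For number 2 minus number 1, the count in liver was 1 under both quantile normalisations (Apob) and 0 to 1 with each mouse left out (Apom without yellow 1 or pseudoagouti 2, and Apof without slightly mottled 2). In brain it was 0 to 1 (Apoe without mottled 1). The liver difference of the Apom probe set 1419095_a_at turned to 0.26 without pseudoagouti 2, and with each mouse left out it ran from -0.52 to 0.26.

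Kidney minus brain of Apoc4 ran from -0.077 to 0.43 with each mouse left out, and turned to -0.077 without yellow 2, -0.22 without yellow 2 and mottled 2, and -0.58 without the 4 mice with liver markers in kidney. Without those 4, Apof was -0.037 and Apoh -0.052, and the Apof kidney slope was 0.028. With an offset of 64, kidney minus brain of Apoa4 and Apoc3 was 0.81 and 0.98, under the log2 difference of 1, and with an offset of 1 that of Apof was 1.28. Each coat class holds 2 mice and each sample 1 array, the values carry no detection calls, and the kidney and brain signals of most of these genes lie near or under the array median, where MAS5 signals are imprecise.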

Other observations

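Apoh was the gene whose probe sets differed most between each other. The second probe set, 1447719_at, had liver signals of 321 to 500.3, kidney signals of 42.6 to 94.1 and brain signals of 80.6 to 170.1. Liver was still higher than kidney, by 2.32 ± 0.14 on the log2 scale (adjusted p = 1.2e-13), and than brain, by 1.75 ± 0.14 (adjusted p = 1.4e-11), by limma. Kidney minus brain was -0.57 ± 0.14, against 0.56 ± 0.24 on the representative probe set, and both lay under the log2 difference of 1. In liver the correlation of the 2 Apoh probe sets over 10 mice was -0.425.

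Apoc3 in kidney was 542.3 in yellow 2 and 464.4 in heavily mottled 1, against 92.0 to 313.4 in the other 8. Heavily mottled 1 also had the highest Apob kidney signal, at 573.8, with a liver marker mean of 6.69.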
